A study of Mus musculus with 10 samples.

Results

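The carriers that bring the products of protein digestion into the cells of the small intestine are described here through 10 genes, Slc15a1, Slc6a19, Slc6a14, Slc7a7, Slc7a8, Slc7a9, Slc3a1, Slc3a2, Slc1a1 and Slc36a1. They were chosen by symbol for what their proteins transport, and all 10 were among the 24062 gene symbols counted in every library and among the 17632 genes with enough counts to be tested. RNA was measured in whole jejunum, the middle stretch of the small intestine, of C57BL/6 mice at postnatal day 5. The WT group held 5 libraries from wild-type mice. The KSR23 group held 5 libraries from mice labelled KSR23+, in which a cassette for both subunits of interleukin-23 (IL-23), placed in the ROSA26 locus behind a floxed stop signal, was released by cre recombinase under the keratin 14 promoter. That promoter is known from keratinocytes, and the KSR23 mice were smaller than control littermates at this age. Whether WT mice carried cre or the cassette alone is not given in the sources used here.

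Dietary protein reaches the brush border, the lumen-facing membrane of enterocytes, as short peptides and free amino acids. Peptides enter through the proton-coupled carrier PepT1 (Slc15a1). Neutral amino acids enter mainly through the sodium-coupled carrier B0AT1 (Slc6a19), anionic ones through EAAT3 (Slc1a1), and cystine and cationic ones through a pair made of the light chain Slc7a9 and the heavy chain Slc3a1. On the basolateral side, the light chains Slc7a7 and Slc7a8 each pair with the heavy chain Slc3a2, also known as CD98 or 4F2hc, and hand amino acids on towards the blood. Slc36a1 carries small neutral amino acids with protons, and Slc6a14 (ATB0,+) takes up neutral and cationic amino acids with sodium and chloride and is best known from colon and lung.

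The bases in front of the transcription start are printed for the 4 genes whose transcripts differed between the groups, since these are the stretches from which the transcripts described next begin. They are taken from RefSeq on build GRCm38.p6, the assembly that mm10 stands for, on the plus strand and 5′ to 3′, and end before the first transcribed base annotated. Capitals mark matches, on either strand, to a set of known motifs. The piece of Slc6a14 is chrX:21714650-21714895, that of Slc3a1 chr17:85028097-85028346, that of Slc1a1 chr19:28834885-28835048 and that of Slc36a1 chr11:55204090-55204339.
Slc6a14: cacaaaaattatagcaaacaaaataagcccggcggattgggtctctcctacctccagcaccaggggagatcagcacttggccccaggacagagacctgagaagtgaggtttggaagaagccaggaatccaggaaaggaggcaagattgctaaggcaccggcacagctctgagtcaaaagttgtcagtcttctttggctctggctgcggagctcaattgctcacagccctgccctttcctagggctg
Slc3a1: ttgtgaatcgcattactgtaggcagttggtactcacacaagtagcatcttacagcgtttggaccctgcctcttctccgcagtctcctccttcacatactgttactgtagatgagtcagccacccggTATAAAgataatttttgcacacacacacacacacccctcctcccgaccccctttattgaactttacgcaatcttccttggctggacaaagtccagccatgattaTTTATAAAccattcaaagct
Slc1a1: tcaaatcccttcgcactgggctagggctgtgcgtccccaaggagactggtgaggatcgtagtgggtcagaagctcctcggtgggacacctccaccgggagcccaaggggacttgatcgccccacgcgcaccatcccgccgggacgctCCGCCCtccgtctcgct
Slc36a1: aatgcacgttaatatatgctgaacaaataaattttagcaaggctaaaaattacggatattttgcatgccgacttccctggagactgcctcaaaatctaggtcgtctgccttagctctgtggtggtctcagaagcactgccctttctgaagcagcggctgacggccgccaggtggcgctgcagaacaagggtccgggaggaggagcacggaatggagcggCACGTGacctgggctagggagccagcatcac
In Slc3a1 the capitals are TATA box letters (TATAAA), 124, 20 and 18 bases before the RefSeq start, the last pair overlapping on opposite strands. In Slc36a1 they are an E-box (CACGTG) 31 bases before the start, and in Slc1a1 a GC box (GGGCGG, here on the other strand) 103 bases before it. Of 32851 RefSeq promoters searched over the same 250 bases, 12.4% held the TATA box letters, 6.02% the E-box and 32.7% the GC box. A STAT element (TTCNNNGAA), held by 7.02% of all promoters, was found in none of the 10 genes. An amino acid response element (TGATGNAA), held by 3.45%, was found before Slc7a7 alone, 141 and 243 bases before a start, and an HNF1 element, held by 0.00913%, before none. No motif of the set lay in more than 1 of the 4 pieces.

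Library totals ran from 25.5 to 32.0 M counts (M stands for 1e6) in WT and from 31.2 to 60.9 M in KSR23. Of the cassette's genes, Il12b, which encodes the p40 subunit, had 0 to 5 counts in WT and 9 to 40 in KSR23 (log2 fold change 2.32, standard error SE 0.66, adjusted p = 0.00364), and Il23a, which encodes p19, had 1 to 14 and 8 to 34 (0.95, SE 0.59, adjusted p = 0.27). Within the groups the libraries were unevenly spread. One axis held 71.7% of the within-group variance of 9737 genes, with WT replicate 1 and KSR23 replicate 3 near one end and WT replicates 2 and 3 and KSR23 replicate 1 towards the other. Replicates 4 and 5 of each group lay mostly between the rest: each was the highest or lowest of its group for 8.53 to 18.4% of those genes, against 45.7 to 75.6% for replicates 1 to 3. For the transporters, replicates 4 and 5 lay within the range of replicates 1 to 3 in 18 of 20 combinations of gene and group. P-values over 5 libraries a group treat each as a mouse of its own, so results from replicates 1 to 3 are given as well.

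Expression of 4 of the 10 transporters rose in KSR23 jejunum: the amino acid uptake carrier Slc6a14, the anionic amino acid carrier Slc1a1, the proton-coupled carrier Slc36a1 and the heavy chain Slc3a1. None fell, and 6 did not pass the test (edgeR likelihood ratio test, adjusted p under 0.05 over all genes). For comparison, 18.5% of all genes tested passed it, and 9.73% passed it with a higher level in KSR23. The quasi-likelihood test of edgeR, which called 15.4% of all genes, called 4 transporters as well. The groups did not overlap in CPM (counts per 1 M counts of the library total after TMM scaling) for those 4 and overlapped for the other 6, whereas 14.4% of all genes did not overlap. The log2 fold change (KSR23 over WT) was above 0 for 8 of the 10, with a median of 0.55 against 0.03 for all genes. With replicates 1 to 3 alone, where 3.36% of all genes were called, 2 transporters passed, Slc6a14 and Slc1a1. The quasi-likelihood test on those 6 libraries called 140 genes and no transporter. In that test 4 transporters had an unadjusted p under 0.05, as did 11.8% of all genes.

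**Figure D1:**
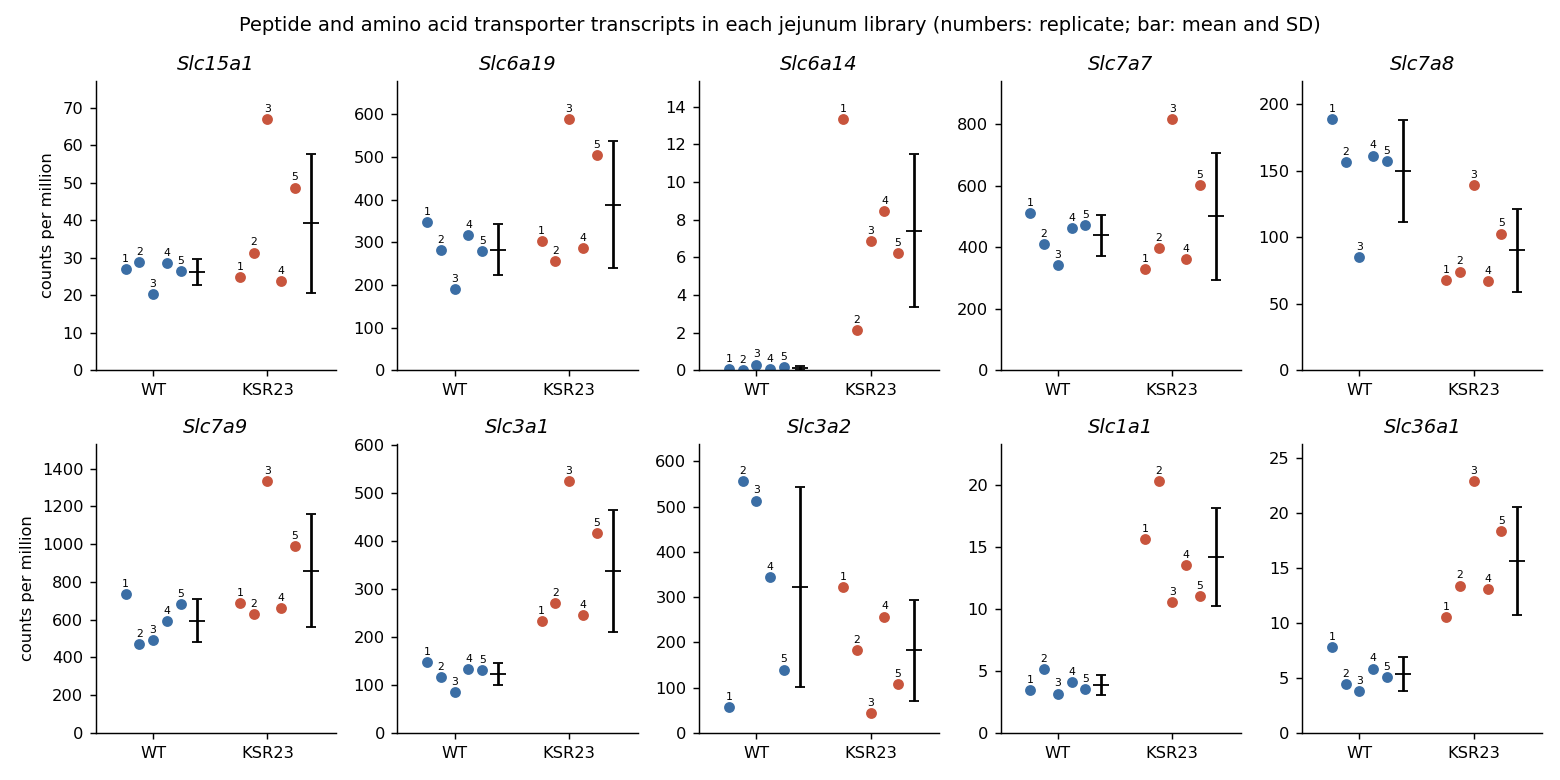
Transcript level of each of the 10 transporters in CPM (vertical axis, linear from 0) in WT and KSR23 libraries. Each point is 1 library labelled with its replicate number, and the bar gives mean and SD over 5 libraries. The groups are apart for Slc6a14, Slc3a1, Slc1a1 and Slc36a1, and KSR23 replicate 3 is the highest KSR23 library for 7 of the 10 genes.

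Because the jejunum was taken whole, fewer cells of a type and less RNA per cell cannot be told apart, and the same holds for more. Of 10 epithelial markers, 3 rose in KSR23 (Cdh1, Cdh17 and Krt20) and none fell, beside 18.5% of all genes called, and their summed level was 3669 to 4913 CPM in WT and 6069 to 9843 CPM in KSR23. All 10 were detected in every library. Of 5 genes listed as markers of the suckling enterocyte, lactase (Lct) and the endocytic receptor Cubn fell, and the protease Tmprss15 rose. Tmprss15 was scarce in WT, with 4 to 15 counts against 0 to 796 in KSR23, and the groups overlapped for it. The summed levels of the 5 genes were 1190 to 1413 CPM in WT and 414 to 1346 CPM in KSR23. The part of these shifts in the transporter results was not tested. Among 8 tested leukocyte markers Itgam rose and none fell, and among 3 endothelial ones Cdh5 fell. Acta2 fell among 6 of stroma and muscle, and none of 4 of neuron and glia passed. Of 5 pancreatic acinar markers, the 3 tested fell from summed levels of 0.11 to 7.92 CPM to 0.057 to 0.29 CPM. Their counts were few. Cpa1 had 1 to 65 in WT and 0 to 8 in KSR23, and Cel 0 to 113 and 0 to 15, with the groups overlapping for both. Cela2a had 2 to 78 and 0 to 1, and so passed the count filter through WT alone. Pnlip, at 0 to 3 and 0 to 1 counts, was not tested, and Ptf1a was at 0 in every library. Among markers of intestinal position, Cybrd1 of the proximal and Slc10a2 of the distal intestine were called, lower and higher, out of 4 each. Slc10a2 had 0 to 9 counts in WT and 5 to 42 in KSR23. The rest did not pass and went both ways. Log2 changes of the proximal ones were 0.35 (Gata4), -0.30 (Onecut2) and 0.56 (Slc40a1). Those of the distal ones were 1.38 (Fabp6), -1.81 (Fgf15) and 0.55 (Osr2). Of 5 erythroid markers only Alas2 was tested, without a call, and the 4 globin genes were listed at 0. The quasi-likelihood test did not call Cdh1, Lct, Itgam, Acta2, Cpa1, Cel or Slc10a2 (adjusted p 0.0521 to 0.0923) and called Uchl1 of neuron and glia (adjusted p = 0.0404). With replicates 1 to 3 alone, Krt20, Cel and Cybrd1 were the only markers called, and none of the suckling enterocyte was.

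Among the carriers of the brush border, Slc6a14 (chrX:21714896-21742355, plus strand, mm10) was close to undetected in WT. Replicates 1 to 5 of WT had 2, 0, 8, 2 and 4 counts, whereas those of KSR23 had 939, 66, 173, 476 and 221. In CPM these were 0.0619, 0, 0.294, 0.0576 and 0.15 against 13.4, 2.13, 6.88, 8.43 and 6.24. Every KSR23 library lay above every WT library, KSR23 replicate 1 highest and replicate 2 lowest. The log2 fold change was 6.03 (SE 0.65, adjusted p = 3.05e-15), and the 95% interval ran from 4.76 to 7.30. The KSR23 libraries spread 6.28-fold, and the WT counts were few, as 3 counts stood for 0.0864 to 0.113 CPM in a WT library. Without WT replicate 3, which held 8 of those counts, the log2 fold change was 6.74, and over all libraries left out in turn it ran from 5.76 to 6.74. From replicates 1 to 3 the change was 5.98 (adjusted p = 2.96e-05), and the quasi-likelihood test on those gave an adjusted p of 0.0656.

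Slc1a1 (chr19:28835049-28913960, plus strand), the carrier of glutamate and aspartate, rose from a low level. It measured 3.44, 5.16, 3.16, 4.09 and 3.53 CPM in WT replicates 1 to 5 and 15.6, 20.2, 10.5, 13.5 and 11 CPM in KSR23. The lowest KSR23 library, replicate 3, was above the highest WT library, replicate 2. The change was 3.66-fold (log2 fold change 1.87, SE 0.31, adjusted p = 1.64e-07) and 2.02 on the log2 scale from replicates 1 to 3 (adjusted p = 0.0209). The gene 4430402I18Rik on the opposite strand shares 30.4% of the 75-base stretches of Slc1a1 exons. No source used here says whether counting used strand, so reads of the shared stretches may be mixed in or left uncounted. 4430402I18Rik stood at 1.43 ± 0.606 CPM in WT and 0.74 ± 0.603 CPM in KSR23 (SD, n = 5), without a call (adjusted p = 0.245).

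Slc36a1 (chr11:55204350-55236330, plus strand), the proton-coupled carrier of glycine, alanine and proline, was 7.77, 4.46, 3.78, 5.85 and 5.07 CPM in WT and 10.5, 13.4, 22.9, 13.1 and 18.3 CPM in KSR23. All KSR23 libraries were higher, and the nearest pair was WT replicate 1 and KSR23 replicate 1. The change was 2.90-fold (log2 1.53, SE 0.33, adjusted p = 0.000119). With replicates 1 to 3 alone the log2 change was 1.58, and the adjusted p was 0.147.

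The heavy and light chain of the cystine and cationic amino acid carrier moved unequally. Slc3a1 (chr17:85028376-85064236, plus strand), the heavy chain, was 148, 117, 85, 133 and 131 CPM in WT replicates 1 to 5 and 233, 271, 524, 246 and 417 CPM in KSR23. The groups did not overlap, and KSR23 replicate 3 was highest. The heavy chain rose 2.75-fold (log2 1.46, SE 0.30, adjusted p = 5.64e-05), with 1.59 from replicates 1 to 3 (adjusted p = 0.0792). Prepl, on the opposite strand, shares 23.99% of the 75-base stretches of Slc3a1 exons and rose as well, from 21.3 ± 5.08 to 37.2 ± 8.96 CPM (log2 0.80, adjusted p = 0.0441). Its mean stayed below that of Slc3a1 in either group. Ratios and levels per length use the full exon length, without an allowance for shared stretches. The light chain Slc7a9 (chr7:35448796-35466036, plus strand) was 735, 472, 493, 592 and 683 CPM in WT and 688, 629, 1332, 659 and 991 CPM in KSR23. The groups overlapped, with KSR23 replicates 3 and 5 above all WT libraries, and the log2 change of 0.53 (SE 0.29, adjusted p = 0.202) did not pass the test.

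The ratio of light to heavy chain transcript, both per length, was therefore compared within each library, where it does not depend on the scaling between libraries. Slc7a9 transcript per Slc3a1 transcript was 5.43, 4.42, 6.35, 4.89 and 5.71 across replicates 1 to 5 of WT, against 3.23, 2.54, 2.78, 2.94 and 2.60 across those of KSR23. All KSR23 values lay below all WT values, KSR23 replicate 3 among them. The geometric mean was 5.32 in WT and 2.81 in KSR23, a log2 difference of -0.92 (exact permutation test, two-sided, p = 0.00794, which is the smallest that 252 splits can give, adjusted p = 0.0238 over 3 ratios). Within replicates 1 to 3 the difference was -0.91, where 3 against 3 cannot reach the threshold. For the basolateral pairs the groups overlapped widely. The log2 ratio of Slc7a7 to Slc3a2 was 1.07 ± 1.596 in WT and 1.87 ± 1.69 in KSR23 (exact permutation p = 0.468, adjusted 0.702), and that of Slc7a8 to Slc3a2 was -1.15 ± 1.71 and -1.21 ± 1.597 (SD, n = 5, exact permutation p = 0.96, adjusted 0.96).

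**Figure D2:**
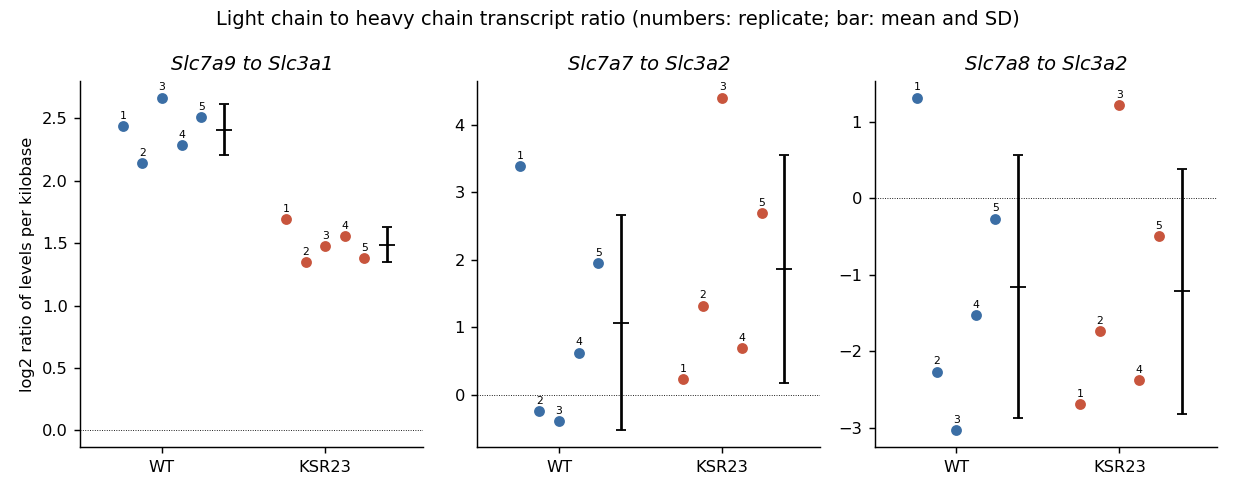
Log2 ratio of light chain to heavy chain transcript per kilobase of exon (vertical axis) in each WT and KSR23 library, for the brush border pair and both basolateral pairs. Points carry the replicate number, bars are mean and SD, and the dotted line marks equal levels. The groups separate for Slc7a9 to Slc3a1 (-0.92 in KSR23 against WT) and overlap for the other pairs.

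The main uptake carriers of peptides and of neutral amino acids, Slc15a1 and Slc6a19, had higher means in KSR23 without passing the test. The peptide carrier Slc15a1 (chr14:121459621-121505252, minus strand) was 26.9, 28.9, 20.4, 28.6 and 26.5 CPM in WT and 24.9, 31.4, 67.1, 23.7 and 48.8 CPM in KSR23. KSR23 replicates 3 and 5 were high, and replicates 1 and 4 lay among the WT libraries. The log2 change was 0.58 (SE 0.34, adjusted p = 0.257). The neutral amino acid carrier Slc6a19 (chr13:73679745-73704865, minus strand) was 347, 281, 190, 317 and 278 CPM in WT and 302, 256, 589, 287 and 504 CPM in KSR23. Again KSR23 replicates 3 and 5 stood above the WT range and the other 3 libraries within it. Its log2 change was 0.46 (SE 0.31, adjusted p = 0.333). The 95% intervals, -0.10 to 1.25 for Slc15a1 and -0.15 to 1.06 for Slc6a19, both include 0.

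On the basolateral side no transcript passed the test. The light chain Slc7a7 (chr14:54369442-54417780, minus strand), which exports cationic amino acids, was 513, 409, 341, 461 and 472 CPM in WT and 329, 397, 819, 360 and 602 CPM in KSR23. KSR23 libraries stood both below and above the WT range. Its log2 change was 0.19 (SE 0.30, adjusted p = 0.73) and became -0.06 without KSR23 replicate 3. The light chain Slc7a8 (chr14:54722209-54781946, minus strand), which exchanges neutral amino acids, was 189, 156, 85, 161 and 157 CPM in WT and 67.6, 74.1, 139, 67.1 and 103 CPM in KSR23. Only WT replicate 3 and KSR23 replicates 3 and 5 fell between the bulk of the groups. The log2 change of -0.73 (SE 0.31, adjusted p = 0.0888) missed the threshold, but without WT replicate 3 it was -0.88 (adjusted p = 0.0288) and without KSR23 replicate 3 it was -0.94 (adjusted p = 0.0113). With library totals in place of the scaling factors it was -0.88 (adjusted p = 0.0219). Without any one of the other 8 libraries it did not pass, with -0.60 (adjusted p = 0.244) without KSR23 replicate 4, for example. From replicates 1 to 3 it was -0.58 (adjusted p = 0.755).

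The shared heavy chain Slc3a2 (chr19:8706882-8723369, minus strand) was the most uneven of the 10, with a within-group SD of 1.28 on the log2 scale. It was 56.3, 556, 513, 344 and 140 CPM in WT replicates 1 to 5 and 322, 183, 44.4, 257 and 107 CPM in KSR23. Low values occurred in both groups, in WT replicate 1 and KSR23 replicate 3, and the groups overlapped over most of their range. The log2 change was -0.82 with an SE of 0.60 (adjusted p = 0.383). Its within-group spread was larger than that of 92.1% of genes, and 96.8% of its within-group variance lay along the axis that separates the replicates, against 1.26% for Slc6a14 and 30.5% for Slc1a1. The other 7 transporters had 57.9 to 87.6% of theirs on that axis, with slopes of the opposite sign to that of Slc3a2.

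**Figure D3:**
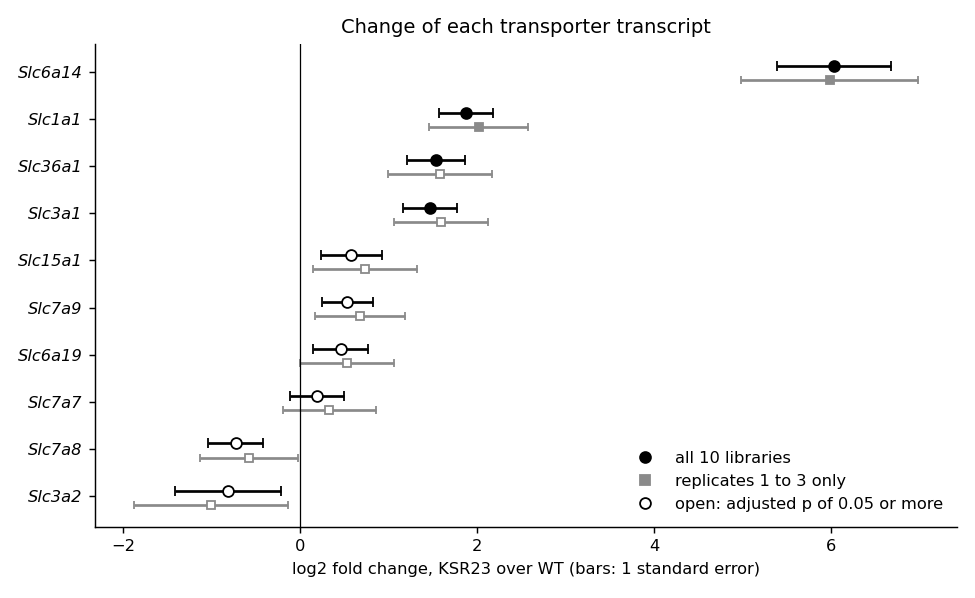
Log2 fold change of each transporter, KSR23 over WT (horizontal axis), with bars of 1 standard error, from all 10 libraries (circles) and from replicates 1 to 3 of each group (squares). Filled symbols passed an adjusted p of 0.05: Slc6a14, Slc1a1, Slc36a1 and Slc3a1 with all libraries, and Slc6a14 and Slc1a1 with 6.

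The light chains that share Slc3a2 can also be set against each other, a comparison chosen after their values were seen and given as a description. Slc7a8 transcript per Slc7a7 transcript, per length, was 0.217 ± 0.0337 in WT (0.161 to 0.246) and 0.118 ± 0.00928 in KSR23 (0.110 to 0.132, SD, n = 5), without overlap. WT replicate 3 was the lowest WT library.

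Per length of exon, the same transcripts led in both groups. In WT the mean level in CPM per kilobase was 287 for Slc7a9, 167 for Slc7a7, 106 for Slc3a2, 71.8 for Slc6a19, 54.1 for Slc3a1 and 36.7 for Slc7a8. Slc15a1 followed with 8.41, then Slc1a1 with 1.02, Slc36a1 with 0.997 and Slc6a14 with 0.0328. In KSR23 Slc7a9 led with 414, ahead of Slc7a7 with 191, Slc3a1 with 149, Slc6a19 with 98.5, Slc3a2 with 60.4 and Slc7a8 with 22.1. Slc15a1 stood at 12.6, Slc1a1 at 3.73, Slc36a1 at 2.89 and Slc6a14 at 2.16 CPM per kilobase. So Slc3a1 and Slc3a2 changed places, the third and the fifth, though the range of Slc3a2 (18.6 to 184 in WT, 14.7 to 106 in KSR23) overlapped those of its neighbours in both orders. Slc7a9 and Slc7a7 did not overlap in WT (228 to 354 against 130 to 195) and did in KSR23 (303 to 642 against 125 to 311). Slc6a19 and Slc3a1 overlapped in either group, as did Slc1a1 and Slc36a1, and Slc6a14 reached the range of Slc36a1 in KSR23 alone. Of the summed level of the 10 genes, Slc3a1 held 7.32 ± 1.02% in WT and 15.4 ± 1.502% in KSR23, Slc7a8 4.95 ± 1.03% and 2.29 ± 0.145%, and Slc7a9 39.0 ± 6.22% and 43.0 ± 1.58% (SD, n = 5).

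**Figure D4:**
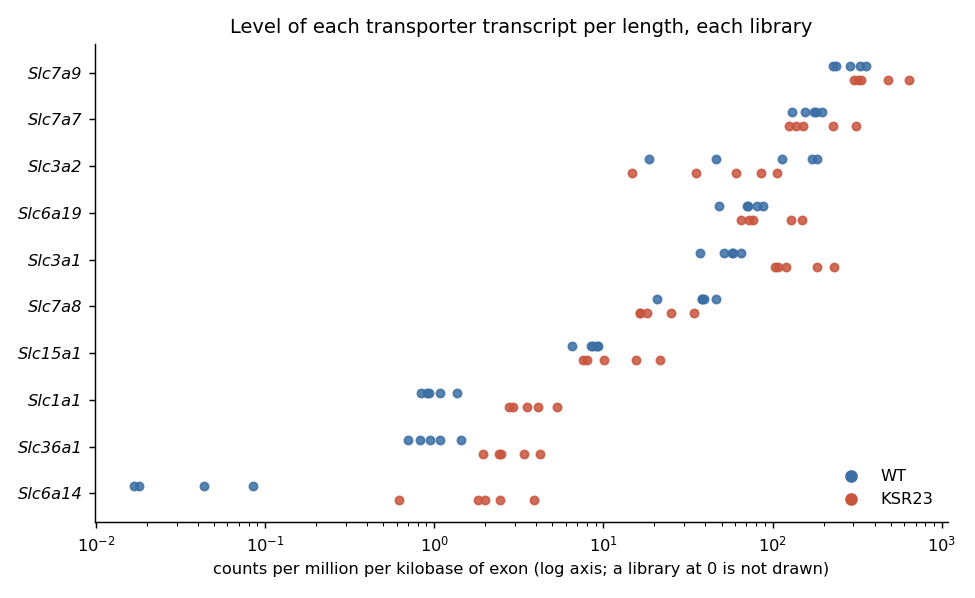
Level of each transporter transcript in CPM per kilobase of exon (horizontal log axis) in each WT and KSR23 library, ordered by the WT mean. The WT library of Slc6a14 at 0 is not drawn. Slc7a9 and Slc7a7 lead in both groups, and Slc3a1 moves from a WT mean of 54.1 to 149 in KSR23.

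Outside these 10 genes, 38 other amino acid and peptide transporters were tested, of which 7 rose, 4 fell and 27 did not pass (median log2 change 0.27, against 0.03 over all genes). The 11 called made up 28.9% of the list, beside 18.5% of all genes, and the quasi-likelihood test called 8, or 21.1%, beside 15.4%, leaving out Slc38a3, Slc38a5 and Slc15a4. Slc7a15, a light chain of the Slc7 family, rose from 1.22 to 22.3 CPM on average (log2 4.19, adjusted p = 2.23e-11), without overlap. The glutamine carrier Slc38a2 rose by 2.02, the large neutral amino acid light chain Slc7a5 by 1.89, Slc38a3 by 1.75, the glycine carrier Slc6a9 by 1.57, the cationic carrier Slc7a1 by 0.99 and the proline carrier Slc6a20a by 0.78 on the log2 scale. Of these, Slc7a5, Slc6a9 and Slc7a1 did not overlap between groups. The glutamine carrier Slc38a5 fell by 1.34, the lysosomal carrier Slc15a4 by 1.09 and Slc6a20b by 3.40, the last from 2 to 25 counts in WT libraries to 0 to 6 in KSR23. Slc6a18 had 0 to 16 counts in WT and 0 in every KSR23 library, so no fold is given. It is counted among the 4 that fell, but it passed the count filter through WT alone. The groups overlapped at 0 for it. Slc38a7, a lysosomal carrier and the most abundant of the list per length over all 10 libraries, did not pass, while in KSR23 alone Slc38a2 was the most abundant (19.6 against 19.2 CPM per kilobase on average). Leaving out WT replicate 4, WT replicate 5 or KSR23 replicate 2 lowered the number called from 11 to 7. Over all genes the number went from 3261 to 2495, 2370 and 2761 in the same fits. Replicates 1 to 3 alone called 2 of the list, or 5.26% beside 3.36% of all genes.

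Of 12 tested accessory and ion gradient proteins, 2 rose and none fell (median 0.23), a share of 16.7% that is close to the 18.5% of all genes. They were the sodium and proton exchanger Slc9a3 by 2.61 (adjusted p = 0.00337) and the potassium channel subunit Kcne3 by 0.94 (adjusted p = 0.0165). The groups overlapped for Slc9a3. The number was 1 without WT replicate 3, without KSR23 replicate 5 or with replicate number as a block, and 0 with replicates 1 to 3. Over all genes these fits called 2578, 2606, 2202 and 579, against 3261 in the main fit. Of 18 genes of the amino acid response, 5 rose and 2 fell (median 0.37), or 38.9% called beside 18.5% of all genes. Those that rose were asparagine synthetase (Asns, log2 2.18, adjusted p = 1.28e-09), the glutathione-degrading enzyme Chac1 (3.12, adjusted p = 2.38e-06), and the serine and glycine synthesis enzymes Shmt2 (1.83), Psat1 (1.77) and Phgdh (1.13). The stress-response factor Ddit3, also known as CHOP, fell by 2.58 (adjusted p = 2.16e-06) and Stc2 by 0.69 (adjusted p = 0.0482) on the log2 scale. Atf4, the factor at the head of this response, and Aldh18a1, the most abundant of the list per length over all libraries, did not pass. With replicates 1 to 3 alone, 5 of the 18 passed, or 27.8% beside 3.36% of all genes. The quasi-likelihood test on those libraries called 0 of the 18, and 140 genes in all.

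**Figure D5:**
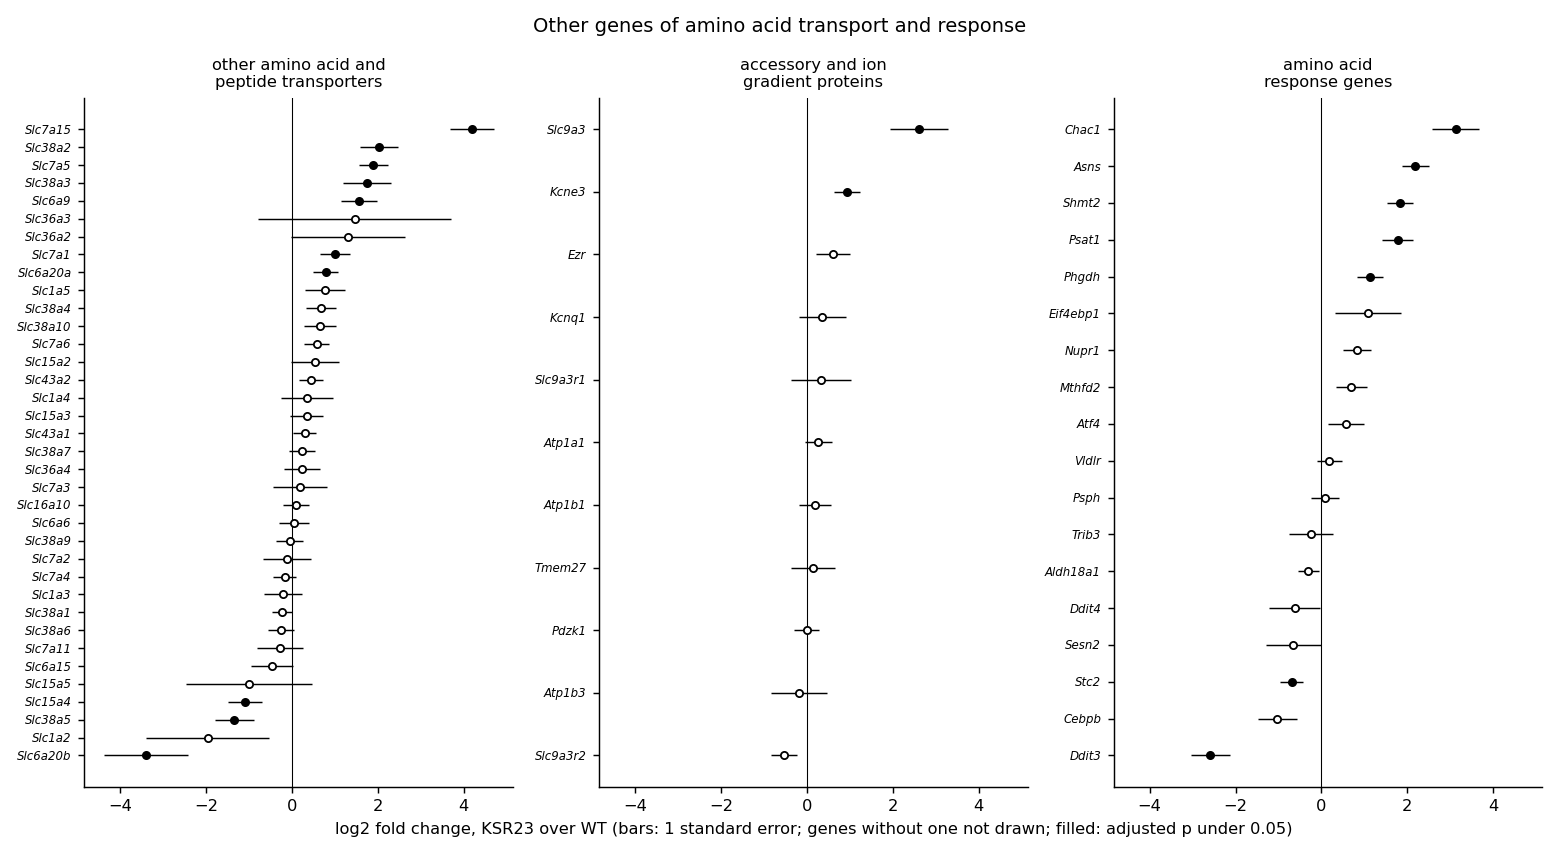
Log2 fold change, KSR23 over WT (horizontal axis), of other amino acid and peptide transporters, accessory and ion gradient proteins and amino acid response genes, with bars of 1 standard error and filled points where the adjusted p was under 0.05. Genes whose counts were too sparse for a standard error, such as Slc6a18, are not drawn. Slc7a15 and Chac1 lie farthest to the right among the filled points, at 4.19 and 3.12.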

How the data were processed

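RNA of whole jejunum from 5 WT and 5 KSR23 mice was sequenced, and groups and replicate numbers were read from the sample titles. Per the labels and the study's methods, 100 pg of RNA was primed with oligo-dT, amplified by PCR and tagged by transposase, without molecular identifiers. The floors therefore cover the error of counting alone, while the 95% intervals of fold changes come from the fitted SE and include the spread between libraries. The authors mapped single-end 75-base reads to mm10 with TopHat2 2.1.0 and counted them per gene with HTSeq 0.6.1p1. Reads with more than 1 alignment entered no gene, and the strand setting is not given in the sources used here. The deposited values were raw counts.

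A gene was kept where any library had at least 5 of its reads, and library totals were scaled by TMM factors in edgeR 4.0.16 (R 4.3.3). The likelihood ratio test, as in the study, was the main test, with Benjamini-Hochberg adjustment over all 17632 genes. CPM are counts per 1e6 of the scaled total, and a floor of 3 counts was 0.0427 to 0.119 CPM. Light to heavy chain ratios used counts plus 0.5 divided by exon length (GENCODE M21, matching 22750 of 24062 symbols). The 10 transporters, the lists and the tests were chosen with earlier results of these data known. Named are all 10 transporters, and from the pathway lists the genes called and the most abundant one of the other transporters and of the response genes. One gene named by this rule is not reported here. Prepl, 4430402I18Rik, Il23a, Il12b, Atf4 and the marker genes were named beside them after their values were seen. Other settings tried were DESeq2 1.42.0, the quasi-likelihood test, other scalings and filters, replicates 1 to 3 alone, a replicate block, each library left out and, added after the data were seen, the within-group axis as a covariate. Whether WT and KSR23 libraries with the same number belong together was checked from their deviations from the group means, and 1 of 5 correlated best with its own number.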

Additional observations from a re-analysis of the deposited data

Results flagged for a closer look

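Among 26 sets of 5 libraries examined (each transporter and each chain ratio in each group), 2 held a library far from the other 4, where chance alone gives about 1.3. Both were WT replicate 3. Its log2 CPM of Slc15a1 was 4.35 (556 counts), with the nearest WT library at 4.73, a gap of 0.755 of the group's range. Its log2 CPM of Slc7a8 was 6.41 (2316 counts), with the nearest at 7.29 and a gap of 0.763 of the range. WT replicate 3 was the lowest WT library for 7 of the 10 transporters.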

How the results depend on the processing

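The same 4 transporters were called by the quasi-likelihood test, DESeq2, RLE size factors, no filter and the replicate block. A filter of 5 or more counts in every library removed Slc6a14, which then had no value, and left 3 called. Library totals alone and totals without the 10 most abundant genes called 5, adding Slc7a8. These scalings moved the median log2 change of all genes from 0.03 to between -0.03 and 0.00.

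Replicates 1 to 3 alone called 579 genes, 2 of the 10 transporters and 7 genes of the 3 pathway lists, and the quasi-likelihood test on them 140, 0 and 0. With the within-group axis as a covariate, added after the data were seen, the numbers were 6500, 7 and 31. That axis is computed from the same libraries' deviations from their group means, so it lowers the residual spread by construction, and its calls add no support. The ratio of Slc7a9 to Slc3a1 was -0.91 on the log2 scale in replicates 1 to 3 (adjusted p = 0.3, and an exact permutation of 3 against 3 cannot go below 0.1). With the replicate block it was -0.92 (adjusted p = 0.188, and 5 pairs cannot go below an unadjusted 0.0625), and the pairing is by number only. Slc7a8 to Slc3a2 reversed to 0.26 in replicates 1 to 3.

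With each library left out in turn, 2370 to 3802 genes, 4 to 5 transporters and 15 to 21 pathway genes were called. Slc7a9 to Slc3a1 ranged from -0.99 to -0.86, Slc7a7 to Slc3a2 from 0.17 to 1.38, and Slc7a8 to Slc3a2 from -0.67 to 0.56, changing sign. Slc7a7 changed sign without KSR23 replicate 3 (-0.058) and was highest without KSR23 replicate 1 (0.358). The causes were not tested. Depth limits Slc6a14 most, at 0 to 8 counts in WT.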
